A study of Rattus norvegicus with 30 samples.

Results

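The genes described are 9 members of the EGF family and its receptors in rat: the ligands Ereg, Areg, Hbegf, Tgfa, Btc and Egf and the receptors Egfr, Erbb2 and Erbb3. They were taken by symbol from the array table, 1 probe set per gene (the probe set with the highest mean level), and are 9 of 14217 genes tested. All 9 were measured, and none was removed by a filter. They were chosen with earlier results of these data known. RNA came from esophageal epithelium of 30 male Sprague-Dawley rats, 1 Affymetrix array per rat. All rats were put on their diet at 4 weeks of age and received the esophageal carcinogen N-nitrosomethylbenzylamine (NMBA). Unedited rats had 4 intragastric doses of 2 mg/kg from week 5, and the labels say that knockout rats went through the same assay, with no week of their own given.

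The 6 groups were as follows. ZD-Anti-miR31_20weeks (n = 5) were unedited rats on a zinc-deficient (ZD) diet given an LNA-antimiR oligonucleotide against miR-31, with a loading dose of 20 mg/kg, 9 maintenance doses of 6 mg/kg over the first 5 weeks and 20 further doses. ZD-Anti-miR31_5weeks (n = 5) were unedited ZD rats given the loading and the 9 maintenance doses. ZD_untreated_CTRL (n = 5) were unedited ZD rats with no antimiR, and ZS_untreated_CTRL (n = 5) were unedited zinc-sufficient (ZS) rats, pair-fed to the deficient animals. ZD-mir31KO (n = 6) and ZS-mir31KO (n = 4) were miR-31-/- rats on the ZD and ZS diets, made by CRISPR/Cas9; the knockout is constitutive, so it is not limited to the epithelium, and whether the rats came from 1 founder line is not stated. The untreated controls are not described as having received vehicle or a control oligonucleotide. The protocol places tissue collection either 48 h after the last antimiR dose or 15 weeks after the first NMBA dose, without saying which applied to the 5-week group. In what follows the groups are called antimiR 20-week, antimiR 5-week, ZD, ZS, knockout ZD and knockout ZS.

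EGF family ligands are made as membrane-anchored precursors, cut free by metalloproteases of the ADAM family, and bind receptors of the ErbB family on the same or neighboring cells. Amphiregulin (Areg), TGF-alpha (Tgfa) and EGF bind Egfr, whereas epiregulin (Ereg), betacellulin (Btc) and HB-EGF (Hbegf) can also engage Erbb4. Erbb2 has no known ligand and Erbb3 has little kinase activity, so both signal as partners of other receptors. In stratified squamous epithelium Egfr signaling drives keratinocyte proliferation, migration and wound repair.

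The sequence that the treatments share is that of the microRNA removed or blocked, shown from RefSeq (GRCr8, chr5:108714906-108714927, minus strand) with its seed, bases 2 to 8, in capitals.
rno-miR-31a-5p: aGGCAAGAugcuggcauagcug

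Btc, Areg and Ereg are next to each other on chromosome 14 in RefSeq GRCr8, followed by Epgn, another ligand of the family, yet the array values of Btc and of its neighbors moved in opposite directions with diet in unedited rats. Promoter windows (250 bases before to 50 after the start) were found in the RefSeq table for 7 of the 9 members; Ereg and Erbb3 had no entry. The windows of Areg (chr14:17265592-17265891, minus strand) and Btc (chr14:16992418-16992717, plus strand) are shown because these neighbors differed in direction. Capitals mark matches on either strand to 3 of the 4 motifs searched: the cAMP response element TGACGTCA, TATAAA and the GC box GGGCGG, which reads CCGCCC when it lies on the other strand. The other motif searched, AP-1 TGANTCA, had no match in the 7 windows.
Areg: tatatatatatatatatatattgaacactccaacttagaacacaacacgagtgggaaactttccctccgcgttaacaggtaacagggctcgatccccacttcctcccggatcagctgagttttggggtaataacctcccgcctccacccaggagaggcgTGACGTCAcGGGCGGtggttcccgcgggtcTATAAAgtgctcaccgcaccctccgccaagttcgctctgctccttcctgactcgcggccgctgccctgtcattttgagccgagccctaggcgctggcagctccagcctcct
Btc: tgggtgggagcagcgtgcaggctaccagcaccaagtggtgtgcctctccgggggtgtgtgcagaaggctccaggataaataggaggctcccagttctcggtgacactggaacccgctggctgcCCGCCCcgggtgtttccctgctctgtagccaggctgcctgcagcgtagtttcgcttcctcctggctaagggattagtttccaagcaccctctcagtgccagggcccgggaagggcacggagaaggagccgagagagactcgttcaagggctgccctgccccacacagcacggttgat
In the Areg window the cAMP response element starts 91 bases, the GC box 82 bases and TATAAA 61 bases before the transcript start, with no overlap between them. Of 33469 RefSeq promoter windows of the same length, 1.83% hold TGACGTCA, 14.2% TATAAA, 33.1% GGGCGG and 7.33% TGANTCA. Among the 7 member windows GGGCGG was found in 5, including that of Btc, and TGACGTCA and TATAAA in 1 each, that of Areg. These matches describe the letters in the windows and were not tested against the expression values.

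The 20 unedited and the 10 knockout arrays had separate ranges of array medians, 5.81 to 5.93 log2 in knockout and 5.37 to 5.45 log2 in unedited rats, so levels are compared within each set. The squamous markers measured (10 of 12) were at or near the top of the level range; the keratins Krt5, Krt14 and Krt15 ranked at percentiles 99.2, 99.4 and 99.7 of mean level. Smooth muscle markers were also present on every array. Their mean over 12 genes was 8.42 ± 0.96 log2 in antimiR 20-week, 8.12 ± 0.89 in antimiR 5-week, 7.49 ± 0.47 in ZD and 9.37 ± 0.52 in ZS rats (SD, n = 5 each), and 9.72 ± 0.63 in knockout ZD (n = 6) and 10.94 ± 0.39 in knockout ZS rats (n = 4). The mean of 11 skeletal muscle markers varied more within the unedited groups. It was 7.84 ± 1.39 log2 in antimiR 20-week, 7.71 ± 1.65 in antimiR 5-week, 7.41 ± 1.83 in ZD and 7.58 ± 1.38 in ZS rats. In knockout ZD it was 9.01 ± 1.00 and in knockout ZS rats 9.51 ± 0.54. Its part in the differences below was not tested. In bulk tissue fewer cells of a type and less RNA per cell cannot be told apart. Knockout ZS rat 32 stood apart: its macrophage marker mean was 8.78 log2, against 6.65 to 7.52 in the other 3 rats of its group, and its T and B cell marker mean was 7.74, against 5.46 to 6.16. Its fibroblast and matrix mean was 11.37, against 9.57 to 10.45, its smooth muscle mean 11.47, against 10.55 to 10.95, and its squamous mean 12.67, against 12.84 to 12.96. It also had the lowest value of its group for all 9 EGF family genes.

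**Figure D1:**
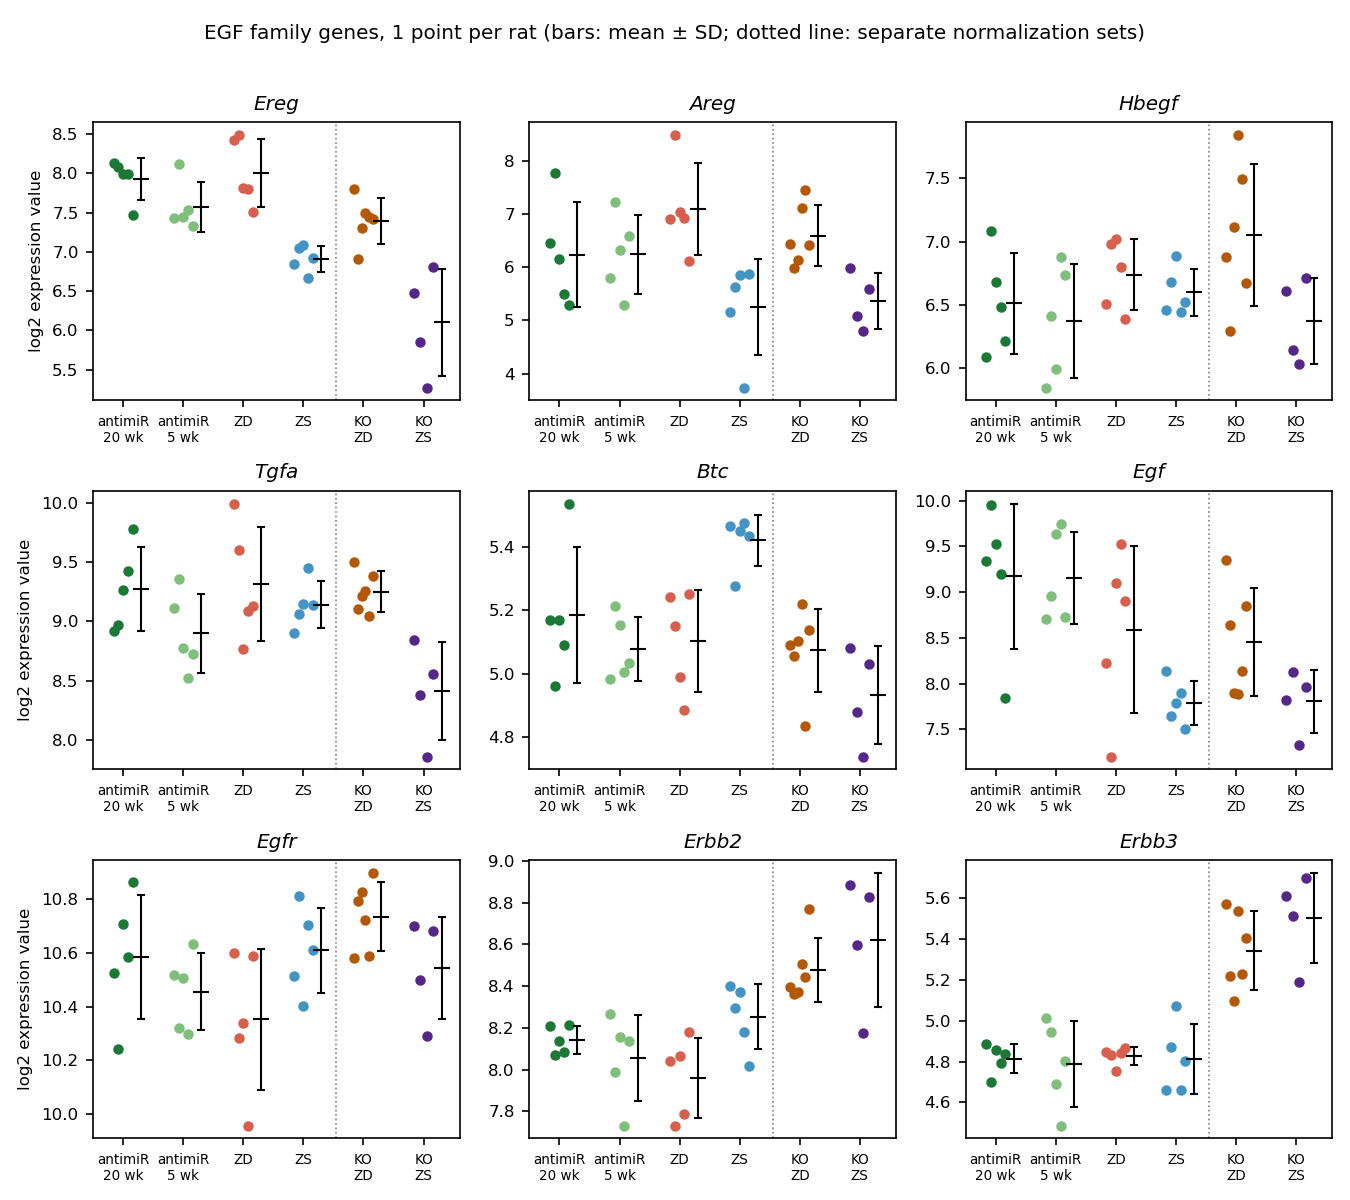
Log2 expression value (vertical axis, a separate range in each panel) of the 9 EGF family genes, 1 point per rat, in the 6 groups. Bars are mean ± SD. The dotted line separates unedited from knockout arrays, taken as 2 normalization sets because of their array medians. Ereg and Areg lie higher in all 5 ZD than in all 5 ZS rats, and Ereg and Tgfa lie higher in all 6 knockout ZD than in all 4 knockout ZS rats.

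The first comparison asked what zinc deficiency did to the family in unedited rats. Ereg and Areg were higher in ZD than in ZS epithelium, and Btc was lower; the other 6 genes did not pass the test. The 3 of 9 called genes compare with 13.9% of all 14217 genes (6.94% higher, 6.95% lower), by limma with a Benjamini-Hochberg adjusted p under 0.05 over all genes, and the median change of the 9 was 0.14 log2, against 0.00 over all genes. Values are log2 expression values and changes are ZD minus ZS.

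Epiregulin (Ereg), a broad ErbB ligand, had levels of 8.43, 8.49, 7.81, 7.81 and 7.50 log2 in ZD rats, against 6.85, 7.05, 7.09, 6.67 and 6.92 log2 in ZS rats. The lowest ZD rat lay above the highest ZS rat. The difference was 1.09 (SE 0.23, limma adjusted p = 0.00225), a 2.14-fold rise.

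Amphiregulin (Areg), an Egfr ligand that keratinocytes release, had 6.90, 8.49, 7.04, 6.93 and 6.12 log2 in ZD rats, against 5.16, 5.63, 5.86, 3.74 and 5.88 log2 in ZS rats. The groups did not overlap, although ZD rat 12 and ZS rat 19 lay far out at either end. Relative to the array median, Areg lay at -0.27, 0.23, 0.44, -1.68 and 0.43 log2 in ZS rats, so near or under it. The difference was 1.84 (SE 0.47, limma adjusted p = 0.00979), a 3.59-fold rise. Ereg and Areg passed in all 10 fits that left out 1 rat, with adjusted p up to 0.0105 for Ereg and 0.0418 for Areg.

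Betacellulin (Btc) had 5.24, 5.15, 4.99, 4.89 and 5.25 log2 in ZD rats, against 5.47, 5.28, 5.45, 5.48 and 5.44 log2 in ZS rats. Again the groups did not overlap, but by a small margin. The gene fell by 0.32 (SE 0.09, limma adjusted p = 0.022). Btc lies low on these arrays, below the array median on 26 of 30, and the call was lost without ZD rat 13 (adjusted p = 0.0556) or ZD rat 14 (0.083). Groups failed to overlap for 3 of the 9 genes and for 11.4% of all genes.

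The other 3 ligands did not pass. EGF (Egf) had 8.22, 7.20, 9.10, 9.53 and 8.91 log2 in ZD rats, against 8.13, 7.64, 7.79, 7.89 and 7.50 in ZS rats. ZD rat 12 lay below every ZS rat, while 4 of the 5 ZD rats lay above them all. The difference of 0.80 (SE 0.37, adjusted p = 0.155) became 1.15 with adjusted p = 0.0358 without ZD rat 12. Hbegf differed by 0.14 (95% interval -0.35 to 0.63, adjusted p = 0.758) and Tgfa by 0.18 (-0.24 to 0.59, adjusted p = 0.619).

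Among the receptors, Egfr, the main receptor for the ligands above, differed by -0.26 (95% interval -0.50 to -0.01, adjusted p = 0.152). Erbb2, the ligandless partner, differed by -0.29 (-0.53 to -0.05, adjusted p = 0.0959). Erbb3 differed by 0.01 (-0.20 to 0.23, adjusted p = 0.951), and lay below the array median on 30 of 30 arrays. Egfr ranged from 9.96 to 10.60 log2 in ZD and from 10.40 to 10.81 log2 in ZS rats, and Erbb2 from 7.73 to 8.18 log2 in ZD and from 8.02 to 8.40 log2 in ZS rats, so both overlapped.

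Smooth muscle markers moved with the diet groups: 10 of 12 were lower in ZD than in ZS rats (median change -2.30 log2), and their mean ranged from 6.89 to 8.11 log2 in ZD and from 8.80 to 10.21 log2 in ZS rats. With this mean as a covariate the ZD minus ZS difference was 0.66 for Ereg (adjusted p = 0.26), 0.06 for Areg (0.964) and -0.26 for Btc (0.338), so none of the 3 kept its call. All-gene calls dropped to 136 from 1974 in that fit. Within these 10 rats the marker mean does not overlap between the diets, and their parts in the difference cannot be told apart. Of the squamous markers, 4 of 10 were lower in ZD rats, Col17a1 (-0.73), Evpl (-0.50), Ppl (-0.41) and Krt15 (-0.19), and the list mean ranged from 12.62 to 12.87 log2 in ZD and from 12.81 to 12.88 log2 in ZS rats. Higher in ZD rats were 2 of 6 endothelial markers and 1 each of 7 macrophage, 6 neutrophil and mast cell, 5 adipocyte and 2 erythroid markers. The part of these lists in the ligand differences was not tested.

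**Figure D2:**
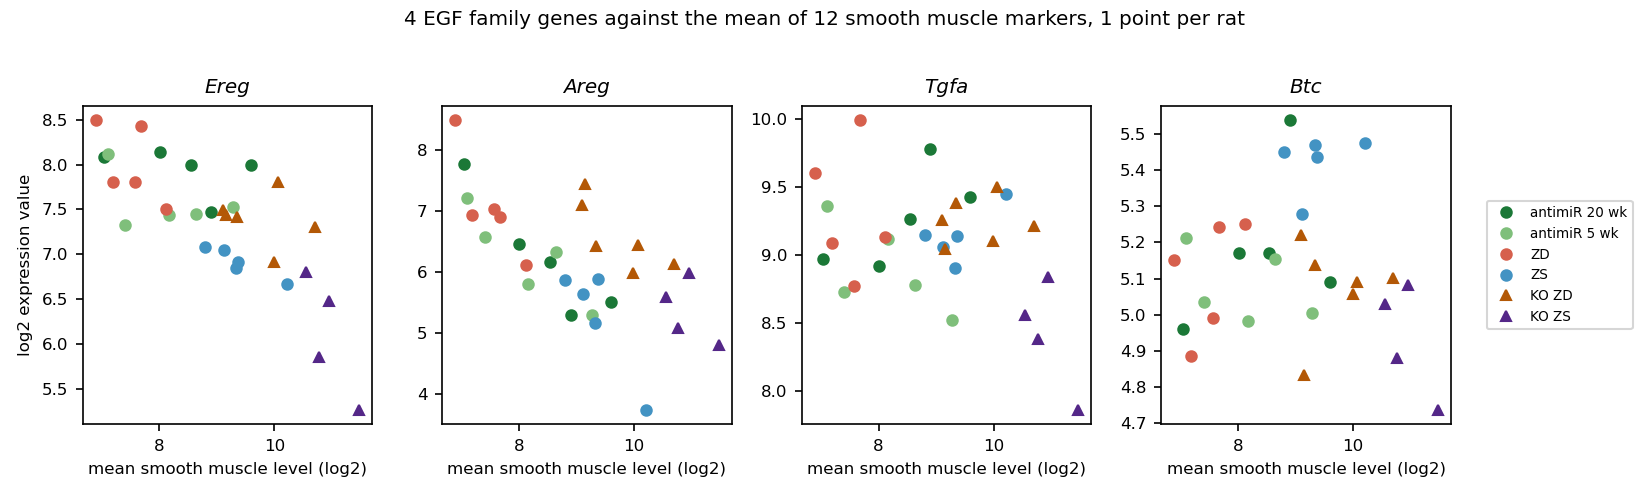
Log2 expression value of Ereg, Areg, Tgfa and Btc (vertical axes) against the mean log2 level of 12 smooth muscle markers (horizontal axes), 1 point per rat, with circles for unedited and triangles for knockout rats. ZD rats (6.89 to 8.11) lie left of ZS rats (8.80 to 10.21) in every panel, and knockout ZD rats (9.10 to 10.70) overlap with knockout ZS rats (10.55 to 11.47).

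The second set of comparisons asked what antimiR did in zinc-deficient rats. No member passed at either duration. At 5 weeks 0 of 9 members and 0% of all genes passed (limma; smallest adjusted p over all genes 0.064), with an unadjusted p under 0.05 for 1 member, Tgfa, and for 1021 of all 14217 genes. At 20 weeks 0 of 9 members passed, against 0.647% of all genes (92), and 0 members had an unadjusted p under 0.05, against 2108 of all genes.

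Ereg had 8.13, 8.08, 7.99, 7.99 and 7.47 log2 in antimiR 20-week rats and 7.43, 8.12, 7.45, 7.53 and 7.33 log2 in antimiR 5-week rats, against the ZD values given above. Both antimiR groups overlapped with ZD. The difference from ZD was -0.07 at 20 weeks (95% interval -0.54 to 0.39, limma adjusted p = 0.918) and -0.44 at 5 weeks (-0.90 to 0.03, adjusted p = 0.709).

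Areg had 6.45, 7.78, 6.16, 5.50 and 5.28 log2 in antimiR 20-week rats and 5.80, 7.22, 6.32, 5.29 and 6.58 log2 in antimiR 5-week rats. Its mean was 6.23 ± 0.98 at 20 weeks and 6.24 ± 0.74 at 5 weeks, against 7.10 ± 0.86 in ZD rats (SD, n = 5 each). The differences from ZD, -0.86 at both durations, had intervals of -1.83 to 0.10 at 20 weeks and -1.82 to 0.11 at 5 weeks, and adjusted p of 0.392 and 0.731. These intervals hold both no change and a fall nearly as large as the rise with zinc deficiency.

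The other members differed from ZD by between -0.42 (Tgfa, adjusted p = 0.694) and 0.56 (Egf, 0.785) at 5 weeks and by between -0.23 (Hbegf, 0.703) and 0.58 (Egf, 0.481) at 20 weeks. Between the durations, 20 against 5 weeks, 0 members passed, against 0.0211% of all genes (3), and the unadjusted p was under 0.05 for 0 members and 868 genes. The largest differences in size were 0.37 for Tgfa (adjusted p = 0.83) and 0.36 for Ereg (0.866).

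Set against zinc-sufficient rats, antimiR 20-week rats, which were zinc-deficient, had higher Ereg and Egf. Of 9 members 2 passed, against 3.63% of all genes (1.83% higher). For Ereg the difference was 1.02 (SE 0.23, limma adjusted p = 0.0121), the groups did not overlap (as for 6% of all genes), and the call held in all 10 fits that left out 1 rat. This comparison shares the ZS rats with the diet comparison, where the Ereg difference was 1.09.

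Egf had 9.34, 9.95, 9.52, 9.20 and 7.84 log2 in antimiR 20-week rats and 8.71, 8.95, 9.63, 9.75 and 8.73 log2 in antimiR 5-week rats, against 7.50 to 8.13 log2 in ZS rats. Of the antimiR 20-week rats 4 lay above all ZS rats, and rat 5 lay among them. The 20-week difference from ZS was 1.38 (SE 0.37, limma adjusted p = 0.0361), a 2.61-fold rise, but it passed in only 1 of the 10 fits that left out 1 rat, with adjusted p up to 0.132. With the smooth muscle mean as a covariate the difference was 0.80 for Ereg (adjusted p = 0.0832) and 1.41 for Egf (0.0936). Areg differed by 0.98 (95% interval 0.02 to 1.94, adjusted p = 0.256) and Btc by -0.24 (adjusted p = 0.155).

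**Figure D3:**
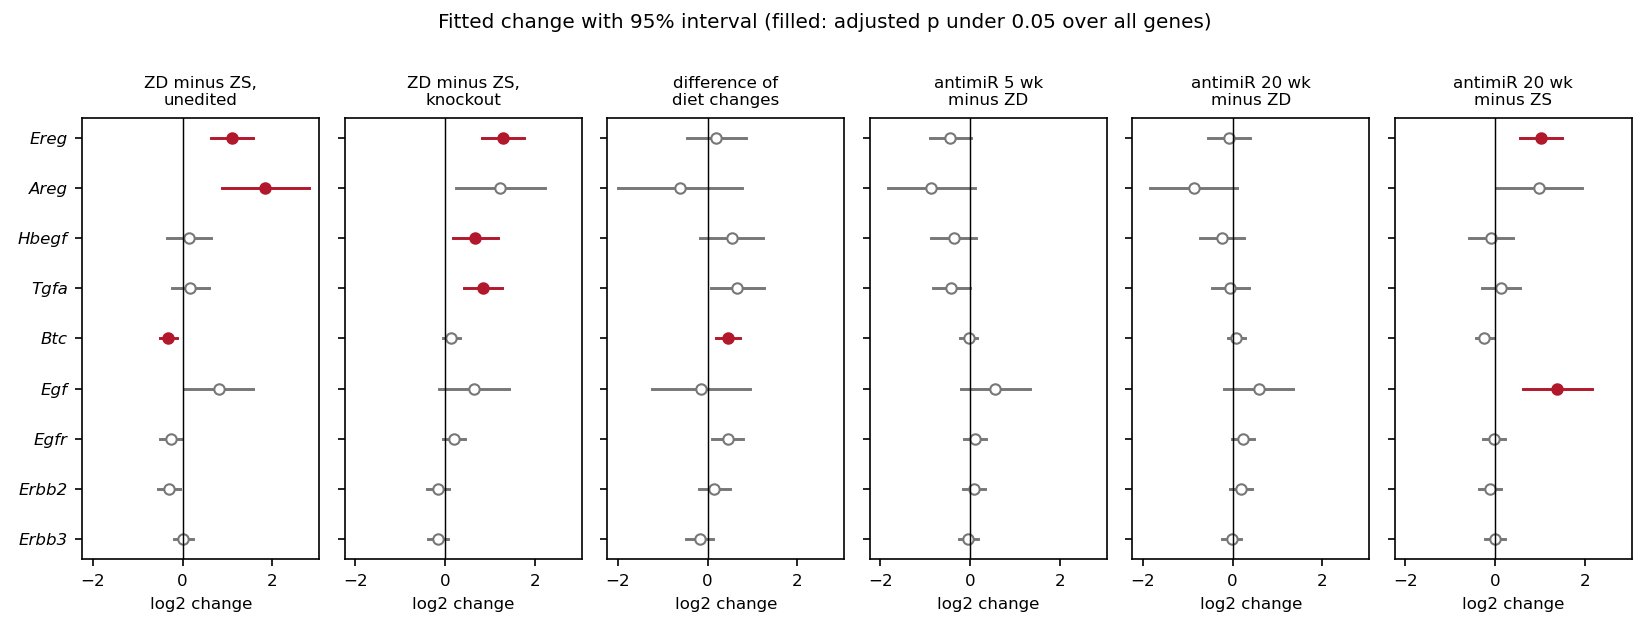
Fitted log2 change (horizontal axis) with its 95% interval for each of the 9 genes in 6 comparisons; filled points have an adjusted p under 0.05 over all genes. Ereg is filled in both diet comparisons and in antimiR 20-week minus ZS, and no gene is filled in antimiR minus ZD at 5 or 20 weeks.

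The third comparison asked what zinc deficiency did in the absence of miR-31. In miR-31-/- rats Ereg, Tgfa and Hbegf were higher in ZD than in ZS epithelium, and no member was lower. The 3 of 9 called genes compare with 21.4% of all genes (9.47% higher, 12% lower), and the median change of the 9 was 0.65 log2, against 0.01 over all genes. The groups did not overlap for 3 members, Ereg, Areg and Tgfa, and for 14.3% of all genes.

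Ereg ranged from 6.91 over a median of 7.43 to 7.80 log2 in knockout ZD rats, against 6.48, 5.85, 5.27 and 6.80 log2 in knockout ZS rats. All 6 ZD rats lay above all 4 ZS rats. The difference was 1.29 (SE 0.23, limma adjusted p = 0.000297), a 2.45-fold rise. Without knockout ZS rat 32 it was 1.02 (adjusted p = 0.0034).

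TGF-alpha (Tgfa), an Egfr ligand of skin and gut epithelium, ranged from 9.04 over a median of 9.23 to 9.50 log2 in knockout ZD rats, against 8.84, 8.38, 7.86 and 8.56 log2 in knockout ZS rats. The groups did not overlap. The difference was 0.84 (SE 0.21, limma adjusted p = 0.005), and 0.66 without rat 32 (adjusted p = 0.0454). A second probe set of Tgfa gave 0.90 (SE 0.22, adjusted p = 0.00499 over all probe sets).

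HB-EGF (Hbegf), a ligand released at wound edges, ranged from 6.30 over a median of 6.997 to 7.84 log2 in knockout ZD rats, against 6.61, 6.14, 6.03 and 6.71 log2 in knockout ZS rats. The groups overlapped. The difference of 0.68 (SE 0.25, limma adjusted p = 0.0489) passed in 4 of the 10 fits that left out 1 rat. It was lost without ZS rats 31 (adjusted p = 0.126) or 32 (0.56, 0.187) and without ZD rats 34, 36, 37 or 38 (adjusted p 0.0561 to 0.122).

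Areg ranged from 5.99 over a median of 6.43 to 7.45 log2 in knockout ZD rats, against 5.98, 5.09, 4.79 and 5.59 log2 in knockout ZS rats. Its groups did not overlap, by 0.01 log2, and the difference of 1.23 (SE 0.48, limma adjusted p = 0.0662) did not pass; fitted on the 2 knockout groups alone it did (adjusted p = 0.0278). Egf differed by 0.65 (95% interval -0.13 to 1.43, adjusted p = 0.231) and Btc by 0.14 (-0.05 to 0.34, 0.303).

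The receptors Erbb2 and Erbb3 differed by -0.15 (adjusted p = 0.411) and -0.16 (0.295). For Egfr the 3 probe sets disagreed. The probe set with the highest mean, used throughout, differed by 0.19 (SE 0.12, adjusted p = 0.269 over all probe sets), but the second differed by 0.62 (SE 0.15, adjusted p = 0.00441) and the third, whose level was low, by 0.38 (SE 0.11, adjusted p = 0.0164). Averaged over its probe sets, Egfr was higher in knockout ZD rats by 0.40 (adjusted p = 0.00294).

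Of the smooth muscle markers, 5 of 12 were lower in knockout ZD than in knockout ZS rats (median change -1.25 log2). With their mean as a covariate, Ereg (1.01, adjusted p = 0.00798) and Tgfa (0.84, 0.024) kept their calls and Hbegf did not (0.41, 0.358), while Areg differed by 0.08 (0.916). The marker mean overlapped between these diets only through knockout ZD rat 36 (10.70 log2) and knockout ZS rat 33 (10.55 log2). This fit therefore cannot fully separate diet from the marker mean. Also lower in knockout ZD rats were 2 of 7 macrophage, 2 of 6 T and B cell, 2 of 6 neutrophil and mast cell and 3 of 8 fibroblast and matrix markers (median change of the last list -0.79 log2), and 1 of 10 squamous markers, Perp, was higher (0.18). The part of these lists in the ligand differences was not tested beyond the fits without rat 32.

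The difference between the diet effects, knockout minus unedited, was tested directly. Of 9 members 1 passed, Btc, against 8.39% of all genes (3.78% with a difference above 0). Btc changed by 0.14 with zinc deficiency in knockout and by -0.32 in unedited rats, a difference of 0.46 (SE 0.13, limma adjusted p = 0.0318). Relative to the array median, Btc lay at -1.19 to -0.65 log2 in knockout rats and at -0.13 to 0.06 log2 in ZS rats. At such levels there is little signal over background. The Btc difference passed in 14 of the 20 fits that left out 1 rat. The call was lost without ZD rats 13 or 14, knockout ZD rats 37 or 39 or knockout ZS rat 31 (adjusted p 0.0505 to 0.0654), and without knockout ZS rat 32 it was 0.39 (adjusted p = 0.0922).

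Tgfa and Hbegf passed in knockout and not in unedited rats, and Areg the reverse, but no difference between the effects was called for them. It was 0.66 for Tgfa (95% interval 0.07 to 1.26, adjusted p = 0.157), 0.54 for Hbegf (-0.17 to 1.24, 0.371) and -0.61 for Areg (-1.99 to 0.76, 0.64). For Ereg it was 0.20 (-0.46 to 0.86, adjusted p = 0.77). For Egfr it was 0.45 (adjusted p = 0.0952) on the probe set used and 0.57 (0.00801) on the mean of its probe sets.

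Levels in knockout and unedited rats are given side by side only. Genotype, experiment and normalization set, the last inferred from the array medians, cannot be told apart. Relative to the array median, Ereg averaged 1.55 ± 0.29 log2 in knockout ZD and 2.59 ± 0.44 in ZD rats, and 0.22 ± 0.71 in knockout ZS and 1.49 ± 0.17 in ZS rats (SD; n = 6, 5, 4 and 5). On the same scale Areg averaged 0.75 ± 0.57 in knockout ZD and 1.68 ± 0.86 in ZD rats. Tgfa averaged 2.53 ± 0.44 in knockout ZS and 3.72 ± 0.21 in ZS rats, while the 2 ZD groups, 3.41 ± 0.18 in knockout and 3.90 ± 0.49 in unedited rats, lay closer. After quantile normalization across all 30 arrays Ereg averaged 7.15 ± 0.31 log2 in knockout ZD and 8.10 ± 0.43 in ZD rats, the same order. Btc likewise lay lower in knockout than in unedited rats on both scales, with -0.77 ± 0.13 in knockout ZD and -0.31 ± 0.16 in ZD rats relative to the array median. In the deposited values Btc was close in the 2 ZD groups, 5.07 ± 0.13 log2 in knockout and 5.10 ± 0.16 in unedited rats. There it was lower in knockout ZS (4.93 ± 0.15) than in ZS rats (5.42 ± 0.08).

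The order of the 6 groups within the deposited values differed between genes. Ereg was lowest in ZS among unedited rats, and the 3 ZD-fed groups overlapped with each other. Areg had the same lowest group, with both antimiR groups between ZS and ZD and overlapping with both. For Egf the means were 9.17 ± 0.79 in antimiR 20-week, 9.15 ± 0.50 in antimiR 5-week, 8.59 ± 0.91 in ZD and 7.79 ± 0.24 in ZS rats. Groups next to each other in this order overlapped. All antimiR 5-week rats (8.71 to 9.75 log2) lay above all ZS rats (7.50 to 8.13 log2), a difference that was not tested. Btc was highest in ZS rats; the antimiR 5-week rats (4.98 to 5.21 log2) lay below them all, while antimiR 20-week rats (4.96 to 5.54 log2) overlapped with them through rat 5. For Hbegf, Tgfa, Egfr, Erbb2 and Erbb3 all 4 unedited groups overlapped.

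The surrounding pathway was described with 5 lists, which were chosen with earlier results of these data known. Their counts stand beside the 13.9% of all genes called for diet in unedited rats and the 21.4% called in knockout rats. Calls were also set against 6 to 8 other processing choices, 1 of them the smooth muscle covariate. Of 4 measured other family genes, 1 was higher and 1 lower with zinc deficiency in unedited rats. Neuregulin 1 (Nrg1), a ligand of Erbb3 and Erbb4, ranged from 4.73 to 5.85 log2 in ZD and from 3.70 to 4.56 log2 in ZS rats. It rose by 1.13 (SE 0.23, limma adjusted p = 0.00225), and Nrg2 fell by 0.38 (SE 0.12, adjusted p = 0.0341). Nrg1 lay below the array median in every ZS rat (ZS array medians 5.41 to 5.45 log2). Nrg1 passed in all 10 fits that left out 1 rat and Nrg2 in 4. With the smooth muscle covariate Nrg1 differed by 0.44 (adjusted p = 0.422), and Nrg2 passed under 4 of 8 other choices (adjusted p up to 0.350). In knockout rats 0 of the 4 passed by limma.

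Of 9 measured genes that shed ligands or restrain shedding, Adam17, the main sheddase of Areg, Hbegf and Tgfa, was higher with zinc deficiency both in unedited (0.32, adjusted p = 0.0109) and in knockout rats (0.30, 0.0129), and in antimiR 20-week against ZS rats (0.43, 0.005). It was the only one called in unedited rats for diet, 1 of 9 against 13.9% of all genes. With the smooth muscle covariate it differed by 0.24 (adjusted p = 0.304) in unedited and by 0.25 (0.0986) in knockout rats, and on the compared groups alone its adjusted p was 0.0543 for diet in unedited rats and 0.0569 against ZS. In knockout rats 4 were lower, Adam10 (-0.61), Adam8 (-0.36), Adam19 (-0.36) and Timp3, the inhibitor of ADAM17 (-0.84). With Adam17 that made 5 of 9, against 21.4% of all genes. Timp3 was named after its values were seen. It was not followed through the other choices or the fits that left out 1 rat. Averaged over probe sets Adam10 turned to 0.13 (adjusted p = 0.562) and Adam8 differed by -0.17 (0.108), and Adam19 passed under 3 of 7 other choices. Leaving out 1 rat kept the Adam17 call in all 10 fits for unedited rats and against ZS, and in 9 of 10 for knockout rats (adjusted p up to 0.074), and the Adam19 call in 7 of 10. In antimiR 20-week against ZS rats Adam15 was lower (-0.36, adjusted p = 0.0267), but with the smooth muscle covariate its adjusted p was 0.0705.

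Of 13 measured genes listed as receptor brakes, 2 were higher and 2 lower with zinc deficiency in unedited rats. In knockout rats 3 were higher and 1 lower, so 4 of 13 were called in each. Whether each listed gene acts as a brake here was not tested. In unedited rats the ubiquitin ligase Cblc fell by 0.48 (adjusted p = 0.00436) and Lrig1, which promotes receptor degradation, by 0.51 (0.0457). The ligase Cbl rose by 0.24 (0.048) and the phosphatase Ptprk by 0.38 (0.0489). Cbl (0.24) and Ptprk (0.58) also rose in knockout rats, as did the deubiquitinase Usp8 (0.37), while the phosphatase Ptprj fell by 0.84. In unedited rats Cblc passed in all 10 fits that left out 1 rat, Lrig1 and Cbl in 3 and Ptprk in 2; in knockout rats Usp8 and Ptprk passed in all 10, Ptprj in 9 and Cbl in 4. Under the 8 other choices for unedited rats Cblc passed in 8, Lrig1 in 5, Cbl in 3 and Ptprk in 2. With the smooth muscle covariate Lrig1 differed by -0.09 (adjusted p = 0.878), Cbl by 0.07 (0.800) and Ptprk by 0.06 (0.906). In knockout rats that fit lost Ptprk (0.37, 0.062), Ptprj (adjusted p = 0.120) and Cbl (0.13, 0.373), and the mean of probe sets lost Usp8 (0.19, 0.0721).

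Of 18 measured adaptor and cascade genes, 3 were higher and 1 lower with diet in unedited rats, and 1 was higher and 1 lower in knockout rats. Pik3r1, the regulatory subunit of PI3-kinase, fell by 1.25 (SE 0.19, limma adjusted p = 0.000127), and was also lower in antimiR 20-week than in ZS rats (-0.96, 0.00529). The kinase Map2k1 rose by 0.50, the adaptor Grb2 by 0.43 and the Ras GTPase-activating protein Rasa1 by 0.37; averaged over its probe sets Grb2 differed by 0.09 (adjusted p = 0.441). In knockout rats Plcg1 fell by 0.26 and Akt2 rose by 0.16, and Akt2 turned to -0.11 on the mean of its probe sets. In fits that left out 1 rat Plcg1 passed in 5 of 10 and Akt2 in 4, and Rasa1 in unedited rats in 8. Pik3r1 passed under all 8 other choices for diet in unedited rats, whereas the smooth muscle covariate lost Map2k1 (0.31, adjusted p = 0.235), Grb2 (0.27, 0.301) and Rasa1 (0.14, 0.658). In knockout rats it lost Plcg1 (-0.13, 0.398), and Akt2 passed under 2 of 7 other choices.

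Of 26 measured immediate and delayed response genes, 7 were higher and 1 lower with zinc deficiency in unedited rats, with a median change of 0.36 log2, against 0.00 over all genes. The 4 with the smallest adjusted p were Vegfa (0.82), the prostaglandin synthase Ptgs2 (3.87), the wound keratin Krt17 (3.22) and the transcription factor Egr2, which fell by 0.89. Ptgs2 ranged from 3.15 to 9.14 log2 in ZD rats (SD 2.31), overlapping with ZS (3.04 to 3.26) and antimiR 20-week rats (2.78 to 3.53). Every ZS and antimiR 20-week rat lay below its array median for Ptgs2 (medians 5.37 to 5.45 log2 in these groups). Krt17 ranged from 7.16 to 13.04 log2 in ZD rats (SD 2.14), overlapping with ZS (6.78 to 7.69) and antimiR 20-week rats (6.78 to 8.18). Vegfa and Egr2 did not overlap between ZD and ZS rats. In antimiR 20-week against ZD rats Ptgs2 (-3.88, adjusted p = 0.0137), Krt17 (-3.01, 0.02) and Vegfa (-0.55) were lower and Egr2 was higher (1.07, 0.00478), in the comparison in which no EGF family member passed. With 1 rat left out Ptgs2 and Egr2 passed in all 10 of these fits, Krt17 in 5 and Vegfa in 3. The list was chosen with earlier results of these data known, so its count is a description only. The 4 of 26 stand beside 0.647% of all genes called at 20 weeks. Egr2 passed under all 8 other choices there, Vegfa under 2, and on the compared groups alone Ptgs2 (adjusted p = 0.154) and Krt17 (0.213) did not pass. For diet in unedited rats Vegfa and Egr2 passed under all 8 other choices, and the smooth muscle covariate lost Ptgs2 (2.27, 0.166) and Krt17 (2.40, 0.137). In knockout rats 6 were higher and 1 lower, among them Junb (0.89), Egr2 (1.02) and Ier2 (0.41), with the protease receptor Plaur lower (-0.63). Junb, Egr2 and Plaur passed under every other choice run for them, although Plaur lay below the array median in every rat. With the smooth muscle covariate the adjusted p of Ier2 was 0.0873. At antimiR 5 weeks 0 genes of the 5 lists passed in limma.

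**Figure D4:**
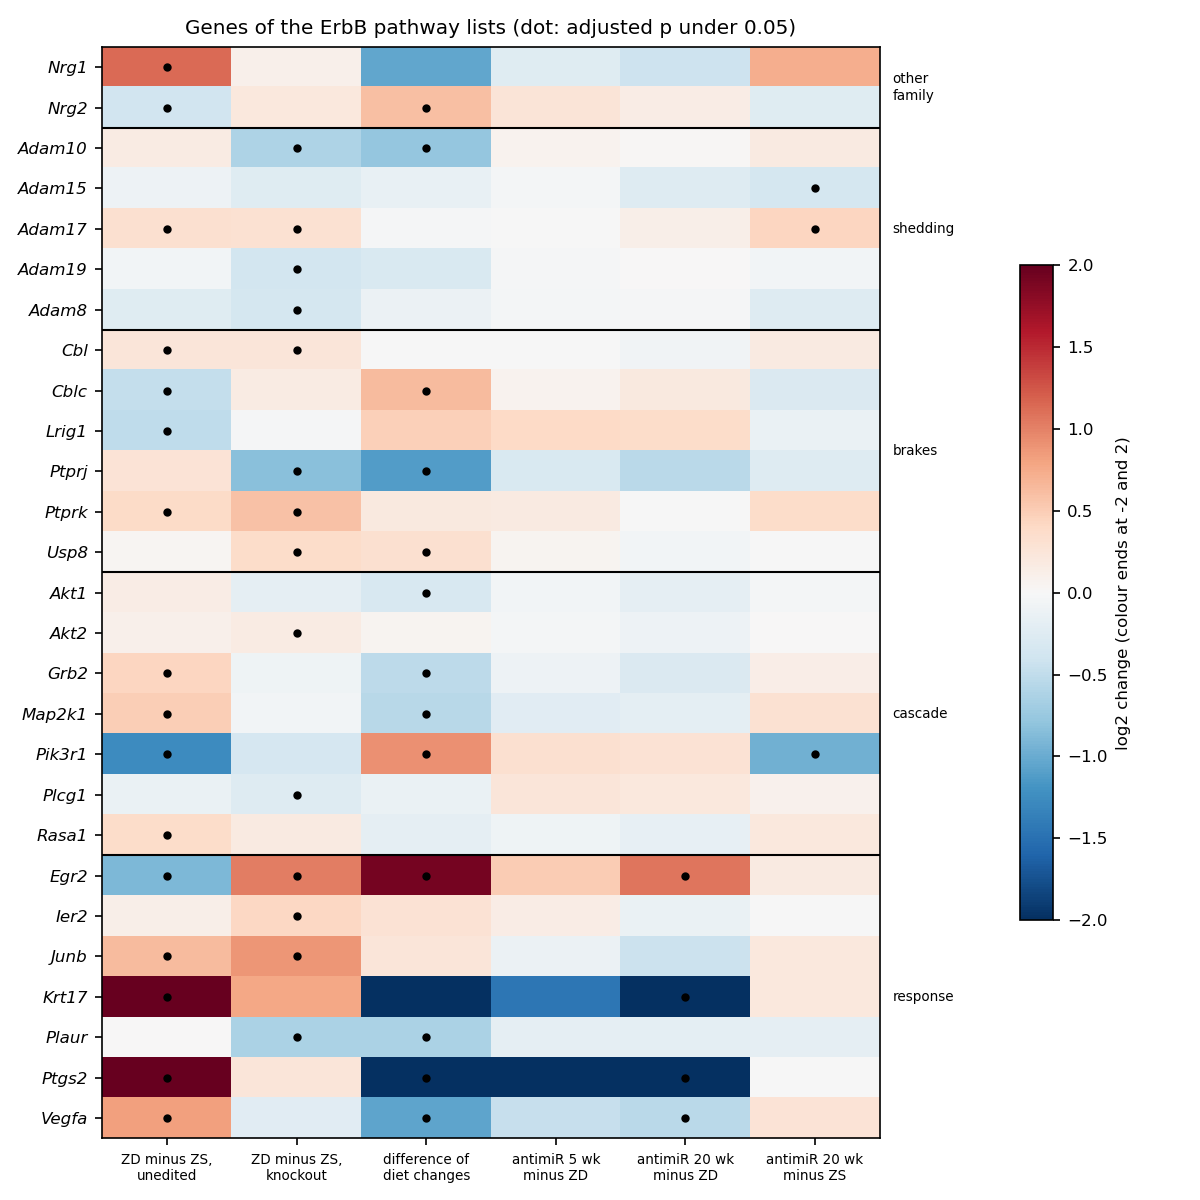
Log2 change (color, which ends at -2 and 2) of the named genes of the 5 pathway lists (rows, lists separated by lines) in 6 comparisons (columns); a dot marks an adjusted p under 0.05. Adam17 has a dot in both diet comparisons, and Egr2 changes sign between unedited (-0.89) and knockout rats (1.02).

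The genes with the most similar profiles over the 20 unedited arrays were found by Pearson correlation, which is a description here because the arrays share diet and treatment groups. For Ereg they were Rcn2 (r = 0.872), Nabp1 (0.862) and Tiparp (0.861), and for Areg Tpm4 (0.890), Ceacam1 (0.881) and Slc2a1 (0.872). Egf was most similar to Ryr2 (0.924), Ppp1r15a (0.902) and Fnta (0.868), and Btc to Taldo1 (0.849), Fam169a (0.842) and Rnf180 (0.833). Hbegf was most similar to Nup50 (0.868), Pvr (0.852) and Naa40 (0.849), and Tgfa to Blzf1 (0.820), Pof1b (0.779) and Stac (0.771). Among the receptors, the closest genes were App (0.893), Aebp2 (0.880) and Dpy19l4 (0.866) for Egfr, Sytl1 (0.914), Rab3d (0.914) and Golgb1 (0.895) for Erbb2, and Blmh (0.802), Tlcd3a (0.801) and Tbc1d32 (0.784) for Erbb3. No other member of the family was among these genes.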

How the data were processed

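Total RNA from 30 rats (RNA integrity checked by the submitters) was hybridised to Affymetrix rat arrays. Each probe set has a log2 value per array, made by the authors before deposit with Affymetrix Expression Console and RMA, per the submitters' processing notes; versions and the annotation used are not given in the sources used here. RMA values compress low signals, and the knockout arrays carry higher array medians than the others, so the sets were taken as normalized separately. The number of arrays limits the precision.

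Groups came from the sample titles. Of 31099 probe sets, 20826 had 1 gene symbol in the platform annotation, 436 had several and 57 were controls; 20758 were matched to RefSeq by gene ID. The probe set with the highest mean was kept for each of 14217 genes. A model with 6 group coefficients was fitted in limma 3.58.1 (R 4.3.3) with lmFit and eBayes, and p-values were adjusted by Benjamini-Hochberg over all genes of a comparison, with a threshold of 0.05; intervals are 95%. The fit was tested on simulated data. Named genes were all 9 members, up to 4 genes passing per pathway list and comparison with the smallest adjusted p, and the 3 closest genes per member. The members and lists were chosen with earlier results of these data known; Timp3 was named after its values were seen. Alternatives were other normalization, filter, model and probe set choices, a smooth muscle covariate, and leaving out each rat. The arrays are of separate rats, and no 2 held identical values. No columns of samples were left unused.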

Additional observations from a re-analysis of the deposited data

Results flagged for a closer look

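Among 54 sets of values (9 genes in 6 groups), 4 held a rat far from the rest of its group, and chance flags about 1 in 20 such sets. Ereg was 7.47 log2 in antimiR 20-week rat 5, with the nearest rat at 7.99, and 8.12 log2 in antimiR 5-week rat 7, with the nearest at 7.53. Btc was 5.28 log2 in ZS rat 17, with the nearest at 5.44. Erbb2 was 8.77 log2 in knockout ZD rat 39, with the nearest at 8.51.

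For 1 member and 13 genes of the pathway lists the diet effect, ZD minus ZS, differed between knockout and unedited rats by limma's interaction test. Of all 14217 genes 8.39% were called. Calls above and below 0 were 1 and 0 of 4 other family genes and 0 and 1 of 9 shedding genes. They were 2 and 1 of 13 brakes, 1 and 3 of 18 cascade genes and 1 and 3 of 26 response genes. The lists were chosen with earlier results of these data known, so these counts are a description only. The difference, knockout minus unedited, was above 0 for Btc (0.46), Cblc (0.64), Egr2 (1.92), Nrg2 (0.60), Pik3r1 (0.92) and Usp8 (0.32). It was below 0 for Adam10 (-0.77), Akt1 (-0.33), Grb2 (-0.52), Map2k1 (-0.56), Plaur (-0.64), Ptgs2 (-3.62), Ptprj (-1.12) and Vegfa (-1.05). Under other processing choices Adam10 passed in 3 of 7, with -0.24 (adjusted p = 0.5) on the mean of probe sets, and Usp8 (0.06, 0.785) and Nrg2 (0.35, 0.107) did not pass on that mean. On the compared groups alone the adjusted p was 0.056 for Ptprj and 0.0751 for Pik3r1, and with centred arrays it was 0.078 for Akt1. Cblc, Egr2, Grb2, Map2k1, Plaur, Ptgs2 and Vegfa passed under every choice run for them, 6 for Plaur and Ptgs2 and 7 for the others. Plaur lay below the array median in every rat (3.66 to 5.02 log2), as did Ptgs2 in every knockout rat (2.79 to 4.14 log2). Of the 20 fits that left out 1 rat, Akt1 passed in 5, Adam10 in 8, Usp8 in 9, Pik3r1 in 12, Ptprj in 14 and Nrg2 in 16.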

How the results depend on the processing

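No paired analysis was possible because each rat carries its own number and no number is shared between groups. With the smooth muscle mean as a covariate, 0 members and 136 genes passed for diet in unedited rats, 0 members and 126 genes for antimiR 20 weeks against ZS, 27 genes for antimiR 20 weeks and 1518 for diet in knockout rats. Fits on the compared groups alone called 21 genes for antimiR 20 weeks, 0 for 20 against 5 weeks and, against ZS, 140 genes and 1 member; arrays of the same normalization set also gave 1 member there, Ereg. Quantile normalization called 2 genes for antimiR 5 weeks. Without the dimmest 30% of genes, which removes Btc, 7 genes passed for 20 against 5 weeks and 0 members for the interaction; the mean of probe sets gave 2 members there, Btc and Egfr. The main counts were 1974, 0, 92, 3, 516, 3049 and 1193 genes for diet in unedited rats, antimiR 5 weeks, antimiR 20 weeks, 20 against 5 weeks, 20 weeks against ZS, diet in knockout rats and the interaction. Leaving out 1 rat gave, in that order, 1191 to 2424, 0 to 4, 9 to 379, 0 to 20, 166 to 690, 1566 to 3244 and 615 to 1519 genes, and 2 to 4, 0, 0, 0, 1 to 3, 2 to 4 and 0 to 1 members. The lowest counts for both knockout comparisons came without knockout ZS rat 32, and the lowest for diet in unedited rats without ZD rat 14. For antimiR 20 weeks the lowest came without antimiR 20-week rat 4 or ZD rat 12 and the highest without antimiR 20-week rat 2. The causes were not tested.

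Sign changes were confined, among members, to differences that had not passed. With the smooth muscle covariate these were, for diet in unedited rats, Hbegf -0.27 and Erbb3 -0.19; for antimiR 5 weeks, Erbb3 0.028; for antimiR 20 weeks, Ereg 0.14, Areg 0.022 and Erbb3 0.086; for 20 against 5 weeks, Areg 0.28; against ZS, Egfr 0.051; and for the interaction, Areg 0.020. Centring arrays on their medians gave Erbb3 0.0028 (antimiR 20 weeks), Areg 0.0044 (20 against 5 weeks), Egfr 0.000078 and Erbb3 0.024 (both against ZS), and quantile normalization gave Erbb3 0.0072 (against ZS). For diet in knockout rats the mean of probe sets turned 2 called pathway genes, Adam10 to 0.13 and Akt2 to -0.11. Leaving out 1 rat moved Erbb3 from -0.024 to 0.079 for diet in unedited rats. For antimiR 5 weeks it moved Btc from -0.081 to 0.011 and Erbb3 from -0.098 to 0.034. For antimiR 20 weeks the ranges were -0.20 to 0.046 for Ereg, -0.18 to 0.12 for Tgfa, -0.0061 to 0.14 for Btc and -0.033 to 0.014 for Erbb3. For 20 against 5 weeks they were -0.39 to 0.24 for Areg, -0.0057 to 0.26 for Hbegf, -0.18 to 0.35 for Egf and -0.049 to 0.083 for Erbb3. Against ZS they were -0.23 to 0.016 for Hbegf, -0.095 to 0.061 for Egfr and -0.039 to 0.064 for Erbb3. For the interaction they were -0.078 to 0.43 for Ereg, -0.50 to 0.084 for Egf and -0.0022 to 0.23 for Erbb2. Levels near or under the array median carry little signal over background. This holds for Btc, Erbb3 and Plaur, and for Areg in ZS and knockout ZS rats. It also holds for Nrg1 in ZS and knockout rats, and for Ptgs2 in ZS, antimiR 20-week and knockout rats.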
